A study of Mus musculus with 18 samples.

Results

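The comparison described here set the medullary thymic epithelial cells sorted as "hi" (mTEChi) against cortical thymic epithelial cells (cTEC), both from wild type mice. It was chosen by the titles of the libraries, 3 of WT mTEChi and 3 of WT cTEC out of 18 in the series, and it took in every gene at 0.1 RPKM or more in at least 3 of these 6 libraries, which held for 19054 of the 23063 genes listed. RPKM is the sequenced coverage of a gene per kilobase of its length, scaled to the size of the library, so that levels of different genes can be set side by side. The mice were 6 to 8 weeks old, and the strain given for every library, WT included, was B6.129S2-Airetm1.1Doi/J, the line that carries a targeted Aire allele. Thymi were broken up mechanically and digested, stromal cells were enriched, and the populations were taken by multicolour flow sorting. Which surface protein "hi" refers to is not stated in the labels, nor is it stated whether the replicates came from separate mice or pools, so the p-values measure the spread between these libraries only. KO libraries of the same 2 populations, from Aire-/- mice of the same age and strain label, were used for a side-by-side comparison, and the mTEClo libraries were used only for levels.

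The thymus trains T cells in successive compartments. Cortical epithelial cells supply Notch ligands, chemokines and cytokines to immature thymocytes and select those whose receptors recognise self peptides, using a proteasome subunit and proteases that few other cells have. Medullary epithelial cells then display genes of many other organs, in part through the transcriptional regulators Aire and Fezf2, so that self-reactive T cells are deleted or diverted. Mature medullary cells are known for high class II and costimulatory molecules and for signalling through RANK, CD40 and the noncanonical NF-kB pathway.

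The depth lay between 10.8 and 15.6 Gb of aligned sequence in the mTEChi libraries and between 10.7 and 11.4 Gb in the cTEC libraries. The classical cortical proteolysis genes stood apart as the label says. Psmb11, the catalytic subunit of the thymoproteasome, was at 1.95, 1.79 and 1.52 RPKM in mTEChi and at 21.8, 20.5 and 11.3 RPKM in cTEC. Prss16, the thymus-specific serine protease, was at 20.9, 22.1 and 19.5 RPKM in mTEChi and at 335, 321 and 187 RPKM in cTEC. Ctsl, cathepsin L, was at 121, 90.1 and 83 RPKM in mTEChi and at 1072, 1203 and 883 RPKM in cTEC. In all 3 genes the groups did not overlap, and cTEC replicate 3 was the lowest of the cTEC libraries. On the other side, Aire was at 658, 681 and 693 RPKM in mTEChi and at 2.09, 3.95 and 7.39 RPKM in cTEC. Fezf2, the second regulator of medullary self antigens, was at 216, 228 and 213 RPKM in mTEChi and at 4.35, 7.02 and 5.74 RPKM in cTEC. Cd80, a ligand of CD28 and CTLA-4, was at 78.1, 76 and 76.8 RPKM in mTEChi and at 1.5, 3.98 and 5.76 RPKM in cTEC. These medullary genes were above 0 in every cTEC library and were lowest in cTEC replicate 1.

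**Figure D1:**
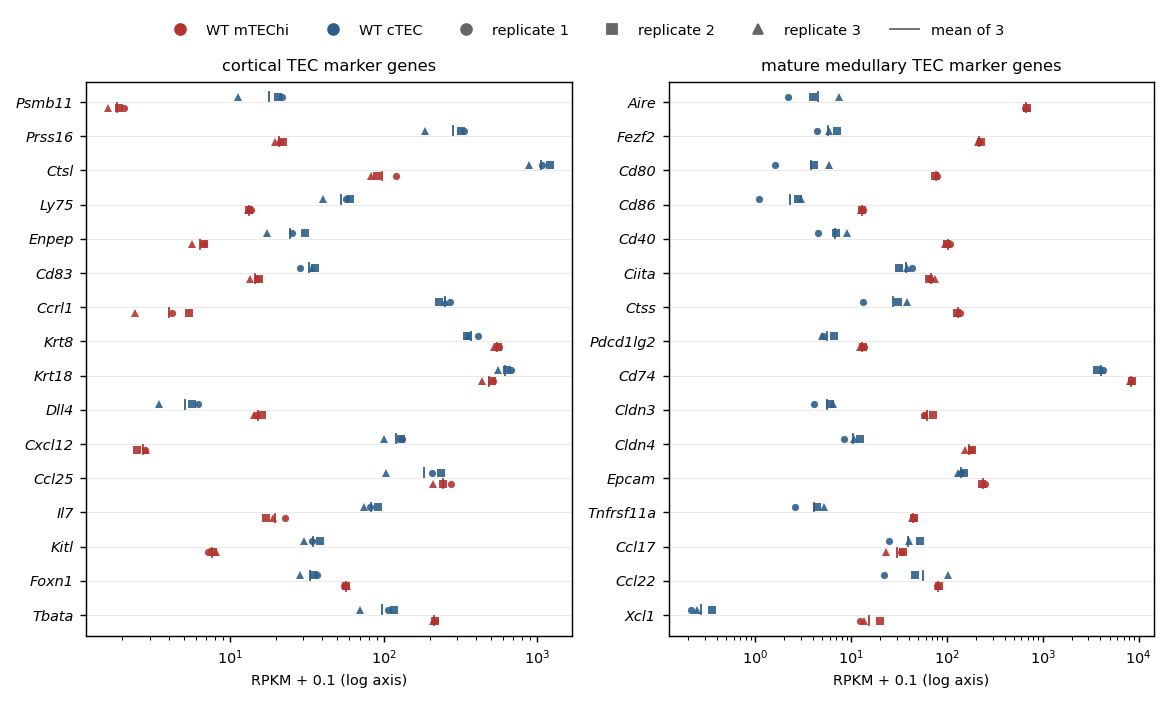
Levels of the 16 cortical and 16 mature medullary marker genes in each of the 6 libraries (RPKM + 0.1, log axis); red symbols are mTEChi, blue symbols cTEC, the symbol shape is the replicate and the short line the mean of 3. Psmb11, Prss16, Ctsl, Cxcl12 and Ccrl1 lie to the right in cTEC, while Dll4, Foxn1, Tbata and Krt8, on the cortical list, lie to the right in mTEChi.

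The marker lists followed their names only in part. Of 16 cortical markers, 11 were called lower in mTEChi, 4 were called higher and 1 was not called. Over all genes tested, 31.6% were called lower and 46.6% higher, at an adjusted p under 0.05 in limma on log2(RPKM + 0.1). The 4 cortical markers that were higher in mTEChi were Foxn1, the master regulator of thymic epithelium (log2 difference 0.77 ± 0.10 (SE), adjusted p = 0.00015), Tbata, a thymic stromal regulator (1.15, adjusted p = 0.00046), the Notch ligand Dll4 (1.61, adjusted p = 0.00015) and the keratin Krt8 (0.56, adjusted p = 0.0014). The chemokine Ccl25 was not called, at 274, 243 and 209.7 RPKM in mTEChi and at 206, 236 and 103 RPKM in cTEC. All but 2 of the 16 mature medullary markers were called higher and none lower. The 2 exceptions were the CCR4 ligands Ccl17, at 33.3, 34.7 and 23.2 RPKM in mTEChi and at 24.9, 52.4 and 39.984 RPKM in cTEC, and Ccl22, at 78.8, 82.6 and 81.2 RPKM in mTEChi and at 22.2, 46.6 and 102 RPKM in cTEC; for both, the mTEChi values lay inside the range of the cTEC libraries or overlapped it. Markers often used for immature or basal medullary cells were mostly on the cTEC side: 7 of 9 were lower in mTEChi. Krt5, a basal keratin, was at 408, 297 and 323 RPKM in mTEChi and at 795, 759 and 869 RPKM in cTEC. Its partner Krt14 was at 149, 121 and 125 RPKM in mTEChi and at 341, 263 and 372 RPKM in cTEC. Decorin, encoded by Dcn, was at 16.9, 14 and 16.3 RPKM in mTEChi and at 402, 358 and 410.1 RPKM in cTEC. The mean of Krt5 in the WT mTEClo libraries was 1855 RPKM, above both groups.

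Markers of other cells the sort could hold were measured as well. The summed level of 18 dendritic cell and macrophage genes was 388 to 419 RPKM in mTEChi and 36.2 to 83.0 RPKM in cTEC, with 13 members higher and 2 lower. Most of the mTEChi sum came from Lyz2, lysozyme, at 319, 336 and 307 RPKM. The 10 B and plasma cell genes summed to 47.0 to 51.2 RPKM in mTEChi and 6.87 to 13.4 RPKM in cTEC (8 higher, 1 lower). Endothelial genes, 10 in number, summed to 31.3 to 37.7 RPKM in mTEChi and 4.87 to 10.3 RPKM in cTEC (8 higher, none lower). The shares called higher in these lists were 72.2%, 80% and 80%, beside 46.6% of all genes. The 11 fibroblast genes went the other way, at 53.3 to 58.9 RPKM in mTEChi and 433 to 501 RPKM in cTEC (3 higher, 8 lower), with Dcn contributing most. Yet the fibroblast genes Pdgfrb, at 11.1, 10.8 and 11.5 RPKM in mTEChi and at 0.727, 1.42 and 1.13 RPKM in cTEC, and Col1a1, at 13.3, 11.6 and 14.6 RPKM in mTEChi and at 1.76, 2.46 and 3.33 RPKM in cTEC, were higher in mTEChi. The 22 thymocyte genes summed to 122 to 171 RPKM in mTEChi and 91.0 to 191 RPKM in cTEC, ranges that overlap (3 higher, 8 lower); without cTEC replicate 3, more of them were higher than lower. No member of the dendritic cell, B cell, endothelial and thymocyte lists was under 0.1 RPKM in all libraries of either group. The part that other cells play in the differences below was not tested, and in bulk RNA fewer cells of a type cannot be told apart from less RNA per cell.

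The breadth of expression differed most plainly. Each mTEChi library had between 19428 and 19558 genes at 0.1 RPKM or more, and each cTEC library between 15417 and 15847, so that the groups did not overlap (two-sided exact permutation test, p = 0.1, and no lower value is possible with 3 libraries a group). At 10 RPKM or more the order turned, with 6213 to 6338 genes in mTEChi and 6433 to 6505 in cTEC (exact p = 0.1). Of the 19054 genes tested, 8886 were called higher and 6029 lower in mTEChi, 78.3% in all. The libraries of the groups did not overlap for 9066 genes on the higher side (47.6%) and 6356 on the lower side (33.4%). A difference of at least 2-fold was called for 6840 genes on the higher side (35.9%) and 2298 on the lower side (12.1%). The genes higher in mTEChi were weakly expressed in cTEC, with a median of 0.324 RPKM there and 3.08 RPKM in mTEChi. Genes lower in mTEChi had medians of 6.99 RPKM in mTEChi and 13.9 RPKM in cTEC, and their median log2 difference was -0.78 against 1.97 for the higher genes. There were 823 genes at 1 RPKM or more in every mTEChi library and under 0.1 RPKM in every cTEC library, and 0 genes of the reverse kind. Every gene of either kind passes the filter, so the filter does not alter the counts of 823 and 0. It does bear on the counts of genes called. For these, 2705 genes passed through the mTEChi libraries alone and 28 through the cTEC libraries alone.

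**Figure D2:**
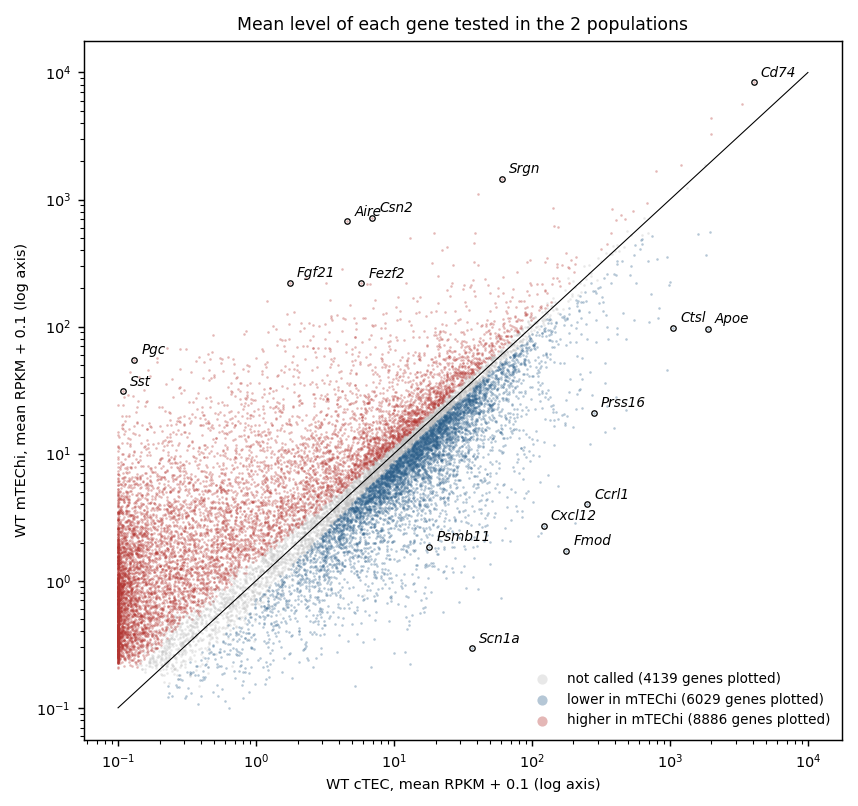
Mean RPKM + 0.1 of each of the 19054 genes tested in cTEC (horizontal, log axis) and mTEChi (vertical, log axis), with genes called higher in mTEChi in red, called lower in blue and not called in grey; the line marks equal levels. The red cloud reaches the left edge, where cTEC levels are near 0, while few blue genes come near the bottom edge.

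The balance of higher and lower calls varied with the level of the gene and with the scale. Of the 3276 genes with a cTEC mean under 0.1 RPKM, 98.2% were called higher and 0% lower. For the 3330 genes at 0.1 to 1 RPKM the shares were 69.9% and 4.86%, and at 1 to 10 RPKM 35.1% and 35.5%. Among genes with a cTEC mean of 10 to 100 RPKM, 19.5% were called higher and 57.4% lower. Among the 359 genes at 100 RPKM or more the shares were 14.2% and 64.1%. The cTEC mean enters the difference, so these shares are a description. With quantile normalization the calls turned to 6088 higher and 8045 lower. Centring each library on the median gene gave 7833 higher and 7570 lower, and on a housekeeping list 7917 higher and 7363 lower. That list is no fixed reference, since 5 of its 12 genes were themselves called higher and 4 lower on the deposited scale. The median log2 difference over all genes was 0.24 in the deposited scale. Each list count below is therefore to be read against the shares of all genes on that scale, 46.6% higher and 31.6% lower.

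The largest differences at each end are given by gene. The 15 largest rises were in Pgc, Ctrb1, Tff3, Pyy, Fabp6, Apoa1, Sst, Tac2, Rln3, Mt4, Calca, Cyp26a1, Gip, Nts and Cytl1. Pgc, the gastric protease precursor progastricsin (chromosome 17, 47726842 to 47734478 in mm10), was at 54.6, 60.2 and 49.5 RPKM in mTEChi and at 0.041, 0.00999 and 0.0425 RPKM in cTEC. Ctrb1, the pancreatic digestive enzyme precursor chymotrypsinogen B (chromosome 8, 111686510 to 111691010), was at 47.9, 48.9 and 35.1 RPKM in mTEChi and at 0, 0.0322 and 0.0331 RPKM in cTEC. Sst, the hormone somatostatin (chromosome 16, 23889581 to 23890844), was at 30.4, 33 and 29.7 RPKM in mTEChi and at 0.024, 0 and 0 RPKM in cTEC. Gip, a hormone of the upper intestine, was at 25.3, 26.4 and 20.6 RPKM in mTEChi and listed at 0 in every cTEC library. These 4 genes, among 8 of the 15, had passed the filter through the mTEChi libraries alone, so their direction was fixed by the filter. The 15 largest falls were in Scn1a, Fmod, Gas1, Thbd, Prelp, Ccrl1, Fst, Pmp22, Scarf2, Cxcl12, Kcnk2, Prss23, Nell2, Efemp1 and Mdga1. Scn1a, a voltage-gated sodium channel (chromosome 2, 66270782 to 66440837), was at 0.238, 0.199 and 0.15 RPKM in mTEChi and at 37.8, 38.1 and 33.6 RPKM in cTEC. Fmod, the collagen-binding proteoglycan fibromodulin (chromosome 1, 134037515 to 134048277), was at 1.98, 1.49 and 1.4 RPKM in mTEChi and at 199, 123 and 211 RPKM in cTEC. Gas1, a membrane protein that acts in hedgehog signalling (chromosome 13, 60174405 to 60177535), was at 5.53, 3.29 and 4.49 RPKM in mTEChi and at 395, 300.4 and 399 RPKM in cTEC. Fst, the activin antagonist follistatin, was at 2.99, 1.83 and 2.04 RPKM in mTEChi and at 119.9, 98.8 and 128 RPKM in cTEC. The genes of both ends changed with log2 differences from 7.80 to 8.71 and from -5.13 to -6.96.

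The 100 bases before the transcription start are shown for the first 4 genes of each end that have an entry in the promoter table, to let the 2 kinds be compared. They are RefSeq sequences of GRCm38.p6, the assembly of mm10, written on the strand of the gene from 5′ to 3′, with TATAAA or its reverse complement TTTATA in capitals.
Pgc: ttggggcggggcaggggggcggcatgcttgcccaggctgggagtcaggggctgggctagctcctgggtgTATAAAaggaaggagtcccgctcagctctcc
Ctrb1: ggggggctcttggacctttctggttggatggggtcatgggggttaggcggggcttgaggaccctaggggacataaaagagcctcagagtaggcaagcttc
Pyy: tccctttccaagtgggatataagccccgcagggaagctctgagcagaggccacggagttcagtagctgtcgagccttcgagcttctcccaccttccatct
Fabp6: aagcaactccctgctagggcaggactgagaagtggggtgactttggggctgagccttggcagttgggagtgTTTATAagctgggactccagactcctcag
Scn1a: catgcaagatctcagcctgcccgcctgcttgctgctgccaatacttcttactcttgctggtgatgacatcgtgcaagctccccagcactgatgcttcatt
Fmod: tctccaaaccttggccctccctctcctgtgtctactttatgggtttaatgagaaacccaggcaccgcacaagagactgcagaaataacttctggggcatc
Gas1: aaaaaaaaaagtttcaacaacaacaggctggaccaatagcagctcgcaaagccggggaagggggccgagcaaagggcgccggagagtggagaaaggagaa
Prelp: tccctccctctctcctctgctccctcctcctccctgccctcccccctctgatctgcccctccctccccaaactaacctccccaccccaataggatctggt
The stretches lie at chr17:47726742-47726841 (plus strand, Pgc), chr8:111691011-111691110 (minus strand, Ctrb1), chr11:102107777-102107876 (minus strand, Pyy), chr11:43601563-43601662 (minus strand, Fabp6), chr2:66440838-66440937 (minus strand, Scn1a), chr1:134037154-134037253 (plus strand, Fmod), chr13:60177536-60177635 (minus strand, Gas1) and chr1:133921402-133921501 (minus strand, Prelp). TATAAA on the gene's strand is present in 1 of the 8 stretches, that of Pgc, where it begins 31 bases before the start, and TTTATA is present in that of Fabp6.

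Over all genes with a promoter in the table, 13661 of those tested, the 2 sets of called genes differed in base composition. In the window from 250 bases before to 50 after the start, TATAAA was present on the gene's strand in 9.53% of 6284 higher genes (95% exact binomial interval 8.82 to 10.3%), in 3.47% of 4463 lower genes (2.96 to 4.05%) and in 5.15% of 2914 genes not called. Among the 27025 genes of the whole promoter table the share was 8.89%. Counting either strand, the shares were 13.6%, 6.18% and 8.13%, and 14.1% in the whole table. Of the motif-bearing promoters, 282 of 599 among higher genes and 40 of 155 among lower genes had a match that began between 40 and 20 bases before the start. The median number of CG dinucleotides in the window was 10 for higher genes, 22 for lower genes, 20 for genes not called, 17 for all tested and 7 in the whole table. Of the higher genes, 1904 had passed the filter through mTEChi alone, which fixed their direction. TATAAA was present on the gene's strand in 14.0% of these (median CG 5). Among the other 4380 higher genes the share was 7.60% (median CG 15). A match is a stretch of letters, and these shares are descriptions without a test.

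The cortical programme beyond the proteases was mixed. Among 38 factors that act on thymocytes or epithelium, 15 were higher and 19 lower in mTEChi. These were 39.5% and 50%, beside 46.6% and 31.6% of all genes. Il7, the cytokine on which early thymocytes depend, was at 22.8, 17 and 19 RPKM in mTEChi and at 81.7, 92.2 and 74.9 RPKM in cTEC. Kitl, the ligand of KIT on progenitors, was at 7.12, 7.69 and 8 RPKM in mTEChi and at 34.3, 38.7 and 30.4 RPKM in cTEC. Cxcl12, the ligand of CXCR4, was at 2.72, 2.4 and 2.74 RPKM in mTEChi and at 133, 131 and 100.4 RPKM in cTEC. Ccrl1, an atypical receptor that removes CCL25 and CCL19 and is used to mark cortical cells, was at 4.11, 5.29 and 2.3 RPKM in mTEChi and at 272, 231 and 251 RPKM in cTEC. All 4 were lower in mTEChi without overlap, by log2 differences of -2.08, -2.16, -5.47 and -6.05. Other cytokines were split: Csf1 (-2.23, adjusted p = 2.7e-06) and Il34 (-2.78, adjusted p = 1.9e-06), both ligands of the CSF1 receptor, were lower, while Flt3l (1.11, adjusted p = 6.9e-05), Il15 (1.30, adjusted p = 5.9e-05) and Tslp (3.27, adjusted p = 2.2e-05) were higher.

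**Figure D3:**
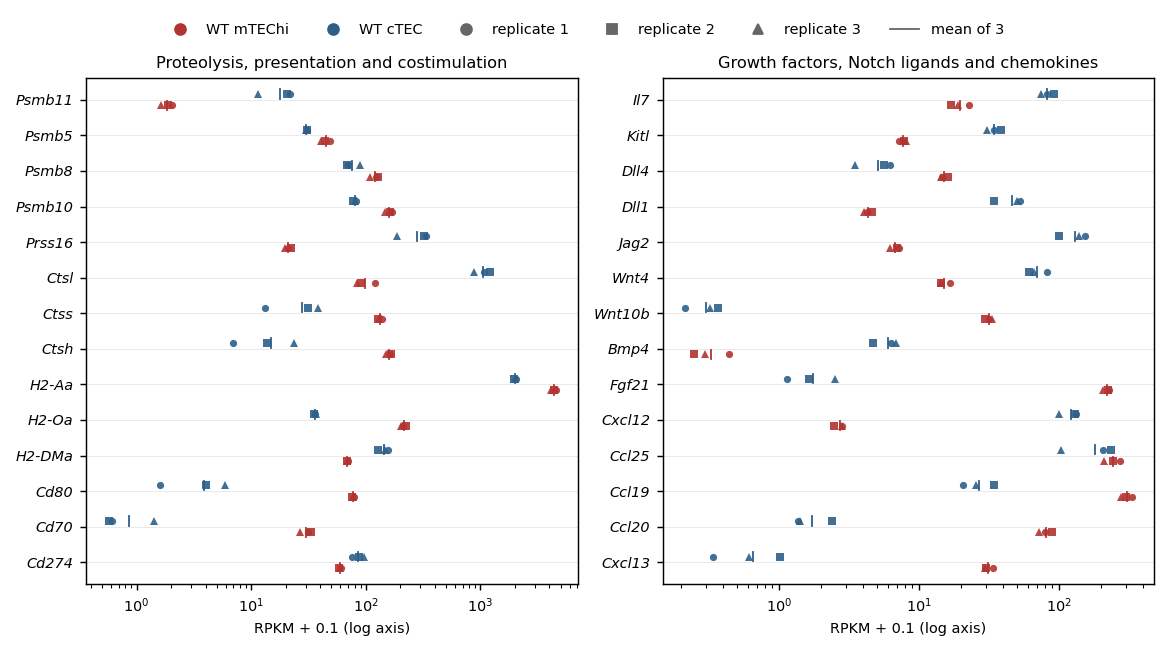
Levels of 14 genes of proteolysis, presentation and costimulation (left) and 14 growth factor, Notch ligand and chemokine genes (right) in each library (RPKM + 0.1, log axis); red is mTEChi, blue cTEC, symbol shapes are replicates and short lines means of 3. Dll4 lies to the right in mTEChi while Dll1 and Jag2 lie to the right in cTEC, and Ctsl and Ctsh lie on opposite sides.

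Notch ligands did not move as a group. Dll4, the ligand that commits progenitors to the T lineage, was at 14.6, 16.1 and 14.4 RPKM in mTEChi and at 6.1, 5.56 and 3.38 RPKM in cTEC. Dll1 was at 4.16, 4.5 and 3.95 RPKM in mTEChi and at 53.1, 34.6 and 50.4 RPKM in cTEC, and Jag2 was at 7.11, 6.87 and 6.13 RPKM in mTEChi and at 153, 101 and 139 RPKM in cTEC. Dll4 and Dll3 (3.70, adjusted p = 1e-06) were higher in mTEChi, and Dll1, Jag1 (-1.32, adjusted p = 6.3e-07) and Jag2 were lower. Dll3 had passed the filter through mTEChi alone, so its direction was fixed. Of 16 further Notch pathway genes, 7 were higher and 9 lower (43.75% and 56.25%, beside 46.6% and 31.6% of all genes). The target genes Hey1 (-2.94, adjusted p = 7.5e-07), Hey2 (-3.40, adjusted p = 1.2e-06) and Hes1 (-1.30, adjusted p = 3e-06) were lower, while Nrarp (2.18, adjusted p = 9.1e-07), Heyl (1.08, adjusted p = 0.00032) and Dtx1 (2.30, adjusted p = 3.3e-06), also known targets, were higher. Mfng, a glycosyltransferase that modifies Notch receptors, was at 16.6, 16.2 and 17.2 RPKM in mTEChi and at 0.423, 0.832 and 1.09 RPKM in cTEC.

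Wnt, BMP and FGF genes likewise split by member. Wnt4 was at 16.6, 14.3 and 14.3 RPKM in mTEChi and at 81.7, 61.4 and 66.7 RPKM in cTEC, and Wnt10b was at 31.6, 29.8 and 33.3 RPKM in mTEChi and at 0.114, 0.265 and 0.221 RPKM in cTEC. Bmp4, which is linked to Foxn1 expression in the thymic primordium, was at 0.344, 0.148 and 0.197 RPKM in mTEChi and at 6.23, 4.59 and 6.82 RPKM in cTEC. Bmp2 was at 16.2, 16.3 and 15 RPKM in mTEChi and at 0.955, 2.21 and 1.11 RPKM in cTEC. The BMP antagonist Grem1 was higher in mTEChi (4.12, adjusted p = 8.9e-07) and the activin antagonist Fst was lower (-5.62, adjusted p = 1.9e-07). Fgf21, a metabolic hormone best known from the liver, was at 229, 226 and 207 RPKM in mTEChi and at 1.04, 1.53 and 2.41 RPKM in cTEC, which made it the FGF ligand with the highest mean in mTEChi. The FGF receptors Fgfr2 (-3.91, adjusted p = 1.6e-07) and Fgfr1 (-2.31, adjusted p = 2.8e-06) were lower in mTEChi.

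Of 26 proteasome and class I genes, 17 were higher in mTEChi, 4 were lower and 5 were not called. The shares were 65.4% higher and 15.4% lower, beside 46.6% and 31.6% of all genes. Centred on the median gene, 13 were higher and 7 lower. The 3 constitutive catalytic subunits Psmb5, Psmb6 and Psmb7 were all higher, with log2 differences of 0.56, 0.47 and 0.64. Of the immunoproteasome and its activator, Psmb8 (0.67, adjusted p = 0.00093), Psmb10 (0.98, adjusted p = 8.7e-06), Psme1 (0.89, adjusted p = 0.00013) and Psme2 (1.38, adjusted p = 1.1e-05) were higher and Psmb9 (-0.51, adjusted p = 0.003) was lower. Psmb5, whose place Psmb11 takes in the thymoproteasome, was at 49, 44.1 and 40.4 RPKM in mTEChi and at 30.4, 30.4 and 29.8 RPKM in cTEC, above Psmb11 in every library of both groups. The peptide transporter genes Tap1 (-0.09, adjusted p = 0.34) and Tap2 (-0.17, adjusted p = 0.074) were not called. Erap1, which trims peptides for class I, was lower (-1.24, adjusted p = 2.3e-06), and H2-M2, a nonclassical class I gene, was higher (1.92, adjusted p = 3e-05).

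Class II chains were among the most abundant transcripts of both groups and were higher in mTEChi. Cd74, the invariant chain and the highest mean of any named gene in both groups, was at 8427, 8552 and 8228 RPKM in mTEChi and at 4220.2, 3708 and 4198 RPKM in cTEC. H2-Aa was at 4519, 4428 and 4167 RPKM in mTEChi and at 2052, 1953 and 1988 RPKM in cTEC. The genes of HLA-DO type, H2-Oa, at 211, 225 and 204 RPKM in mTEChi and at 36.1, 35.1 and 36.4 RPKM in cTEC, and H2-Ob, at 43.7, 44.8 and 44.3 RPKM in mTEChi and at 6.31, 6.84 and 8.45 RPKM in cTEC, which restrain peptide exchange, were higher, while H2-DMa, a chain of the exchange factor that they inhibit, was lower (-1.06, adjusted p = 1.2e-05). Its partner genes H2-DMb1 (0.18, adjusted p = 0.084) and H2-DMb2 (1.04, adjusted p = 2.5e-05) were not called and higher. The transactivator Ciita was higher (0.88, adjusted p = 0.00016), and March8, a ubiquitin ligase that lowers surface class II, was lower (-1.19, adjusted p = 3e-06). In all, 11 of 17 class II pathway genes were higher and 4 lower (64.7% and 23.5%, beside 46.6% and 31.6% of all genes). H2-DMb1 and H2-DMb2 are close copies, so their separate values are uncertain.

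Cathepsin L and Prss16 were the high proteases of cTEC. Ctss, cathepsin S, was at 138, 129 and 129.8 RPKM in mTEChi and at 13.2, 31.2 and 38.3 RPKM in cTEC. Ctsh, cathepsin H, was at 163, 165 and 150.1 RPKM in mTEChi and at 6.84, 13.6 and 23.6 RPKM in cTEC. Ctsz, cathepsin Z, was at 216, 212 and 184 RPKM in mTEChi and at 29.6, 32 and 44.5 RPKM in cTEC. The mTEChi values of these 3 genes were above every cTEC value. Of 16 genes of the list, 8 were higher and 7 lower (50% and 43.75%, beside 46.6% and 31.6% of all genes). Ctsb (-0.58, adjusted p = 8.1e-05) and Ctsd (-0.79, adjusted p = 1.8e-05) were among the lower. Ifi30, the lysosomal thiol reductase GILT, was higher (2.17, adjusted p = 3e-06) and Cst3, the cathepsin inhibitor cystatin C, was lower (adjusted p = 7e-05).

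Costimulation and TNF family genes were mostly higher in mTEChi. Of 20 costimulation and checkpoint genes tested, 14 were higher and 4 lower (70% and 20%, beside 46.6% and 31.6% of all genes). Cd70, the ligand of CD27, was at 31.2, 32.9 and 26.6 RPKM in mTEChi and at 0.515, 0.471 and 1.31 RPKM in cTEC. Icosl was higher (2.95, adjusted p = 6.7e-06), as were Cd86 (2.62, adjusted p = 0.0002), Cd40 (3.94, adjusted p = 1.5e-06) and Tnfsf9 (4.09, adjusted p = 1.7e-05). The 4 lower genes were Cd274, the PD-1 ligand PD-L1 (-0.53, adjusted p = 0.0011), the galectin Lgals9 (-1.73, adjusted p = 6.2e-07), Cd48 (-1.24, adjusted p = 0.028, with overlapping groups) and 4632428N05Rik, which encodes VISTA. Of 37 NF-kB and TNF receptor genes, 25 were higher and 7 lower (67.6% and 18.9%). The noncanonical pair Relb, at 112, 114 and 119 RPKM in mTEChi and at 24.9, 23.7 and 40.9 RPKM in cTEC, and Nfkb2, at 139.8, 146 and 148 RPKM in mTEChi and at 31.7, 30.4 and 36.7 RPKM in cTEC, was higher. Nfkb1, the precursor of the canonical p50 subunit, was at 47.7, 48.5 and 47.3 RPKM in mTEChi and at 138, 116 and 125 RPKM in cTEC, lower in mTEChi. The receptors Tnfrsf11a, which is RANK (3.50, adjusted p = 3.8e-06), and Tnfrsf11b, the RANKL decoy receptor osteoprotegerin (4.25, adjusted p = 2.6e-07), were higher, whereas Ltbr (-1.20, adjusted p = 8.7e-06) and Tnfrsf1a (-1.95, adjusted p = 5.2e-07) were lower.

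Of 34 chemokine and scavenger receptor genes, 18 were higher, 6 lower and 10 not called, beside 46.6% higher and 31.6% lower over all genes. Ccl19, a CCR7 ligand that draws positively selected thymocytes, was at 334, 300.4 and 280.3 RPKM in mTEChi and at 20.7, 34.4 and 25.3 RPKM in cTEC. Ccl20, a CCR6 ligand, was at 79.7, 89 and 72.6 RPKM in mTEChi and at 1.28, 2.29 and 1.33 RPKM in cTEC. Cxcl13, a CXCR5 ligand, was at 33.7, 30.2 and 29.5 RPKM in mTEChi and at 0.239, 0.915 and 0.516 RPKM in cTEC. Xcl1, which attracts XCR1-bearing dendritic cells, was at 12.3, 20.2 and 13.6 RPKM in mTEChi and at 0.114, 0.254 and 0.146 RPKM in cTEC. Those 4 were higher in mTEChi without overlap, while Cx3cl1 was lower, at 15.1, 15.3 and 14.3 RPKM in mTEChi and at 119, 94.3 and 106 RPKM in cTEC. The 10 genes not called included Ccl5, at 152, 183 and 121 RPKM in mTEChi and at 59.2, 124 and 199.7 RPKM in cTEC, and Ccl22, both of which spread several-fold among the cTEC libraries with replicate 1 lowest and replicate 3 highest.

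The transcription factors of pharyngeal pouch and thymic identity were lower in mTEChi apart from Foxn1 and Tbx1. Of the 11 tested, 9 were lower. Pax1 was at 20.7, 19.6 and 19.4 RPKM in mTEChi and at 179.7, 151 and 163 RPKM in cTEC. Trp63, a regulator of stratified epithelia, was at 20.8, 19.2 and 20.8 RPKM in mTEChi and at 178, 166 and 165 RPKM in cTEC. Isl1 was at 8.96, 7.52 and 8.91 RPKM in mTEChi and at 74.6, 79.7 and 79.6 RPKM in cTEC. Hoxa3, which is needed for thymus formation, was at 0.838, 0.406 and 0.719 RPKM in mTEChi and at 12.4, 11.5 and 12.2 RPKM in cTEC. Among the 13 factors with known roles in medullary cells or their subsets, 8 were higher and 4 lower. Spib was at 147, 144 and 137 RPKM in mTEChi and at 6.4, 14.1 and 10.2 RPKM in cTEC, and Irf8 was at 110.2, 120.4 and 106 RPKM in mTEChi and at 26.4, 30.6 and 29.4 RPKM in cTEC. Irf7 (-1.36, adjusted p = 1.4e-05) and Klf4 (-1.45, adjusted p = 1.7e-05) were lower.

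Regulators of other tissues were nearly all on the mTEChi side. Of 33 listed lineage regulators, 30 were tested, 29 were higher and 1, Isl1, was lower; 11 of the 30 had passed the filter through mTEChi alone. Cdx1, an intestinal homeobox factor, was at 129.8, 135 and 126 RPKM in mTEChi and at 0.92, 2.69 and 1.78 RPKM in cTEC. Neurog3, the endocrine progenitor factor, was at 2.62, 3.03 and 1.95 RPKM in mTEChi and listed at 0 in every cTEC library. Foxj1, the regulator of motile cilia, was at 23.2, 26.6 and 20.4 RPKM in mTEChi and at 2.15, 3.04 and 2.43 RPKM in cTEC.

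Most tested genes of other organs were higher in mTEChi, and for those that passed the filter through mTEChi alone this direction was fixed. Among all tested genes with a cTEC mean under 0.1 RPKM, 98.2% were called higher, and at 0.1 to 1 RPKM 69.9%. All 22 pancreatic acinar genes tested of 23 listed were higher, 12 of which had passed through mTEChi alone. For liver the figures were 23 higher of 23 tested (9 through mTEChi alone), for stomach and intestine 26 of 27 (11), for islet and gut hormones 20 of 21 (7), for brain and myelin 22 of 25 (10), for eye 22 of 24 (12), for muscle 27 of 29 (10) and for germ cells 17 of 20 tested of 28 listed (7). The levels differed by orders of magnitude. Csn2, the milk protein beta-casein, was at 689, 762 and 710.3 RPKM in mTEChi and at 3.23, 7.73 and 9.44 RPKM in cTEC. Ins2, preproinsulin 2, was at 15.8, 19.7 and 11.4 RPKM in mTEChi and at 0.047, 0.0157 and 0 RPKM in cTEC. Cryaa, a lens crystallin, was at 17.6, 17.7 and 13.8 RPKM in mTEChi and at 0.11, 0.0244 and 0.0742 RPKM in cTEC. Fgb, the fibrinogen beta chain of liver, was at 9.75, 12.2 and 7.68 RPKM in mTEChi and at 0.00438, 0.0137 and 0 RPKM in cTEC. So the mTEChi level of Csn2 was above that of Aire, while Ins2 and Cryaa stood below 20 RPKM. Some organ genes did not follow. Lgals4, an intestinal galectin, was at 6.16, 7.65 and 6.46 RPKM in mTEChi and at 6.19, 5.64 and 6.67 RPKM in cTEC, and Cryab, a small heat shock protein of lens and muscle, was at 20.3, 21.5 and 23.6 RPKM in mTEChi and at 21.3, 18.7 and 22.7 RPKM in cTEC; neither was called. Bpifa1, an airway and salivary secretory protein, was at 149, 159 and 159 RPKM in mTEChi and at 249, 289 and 448 RPKM in cTEC, lower in mTEChi. Amy1, salivary amylase, was lower as well (-2.90, adjusted p = 4.4e-06), as was the muscle myosin Myh1 (-3.11, adjusted p = 2.8e-06). Chga, a neuroendocrine granule protein, was at 33.9, 40.5 and 32.1 RPKM in mTEChi and at 0.607, 0.184 and 39.4 RPKM in cTEC; replicate 3 of cTEC lay within the mTEChi range, and its call (adjusted p = 0.041) was lost without cTEC replicate 1 or 2 or any 1 mTEChi library (adjusted p from 0.103 to 0.127, limma).

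**Figure D4:**
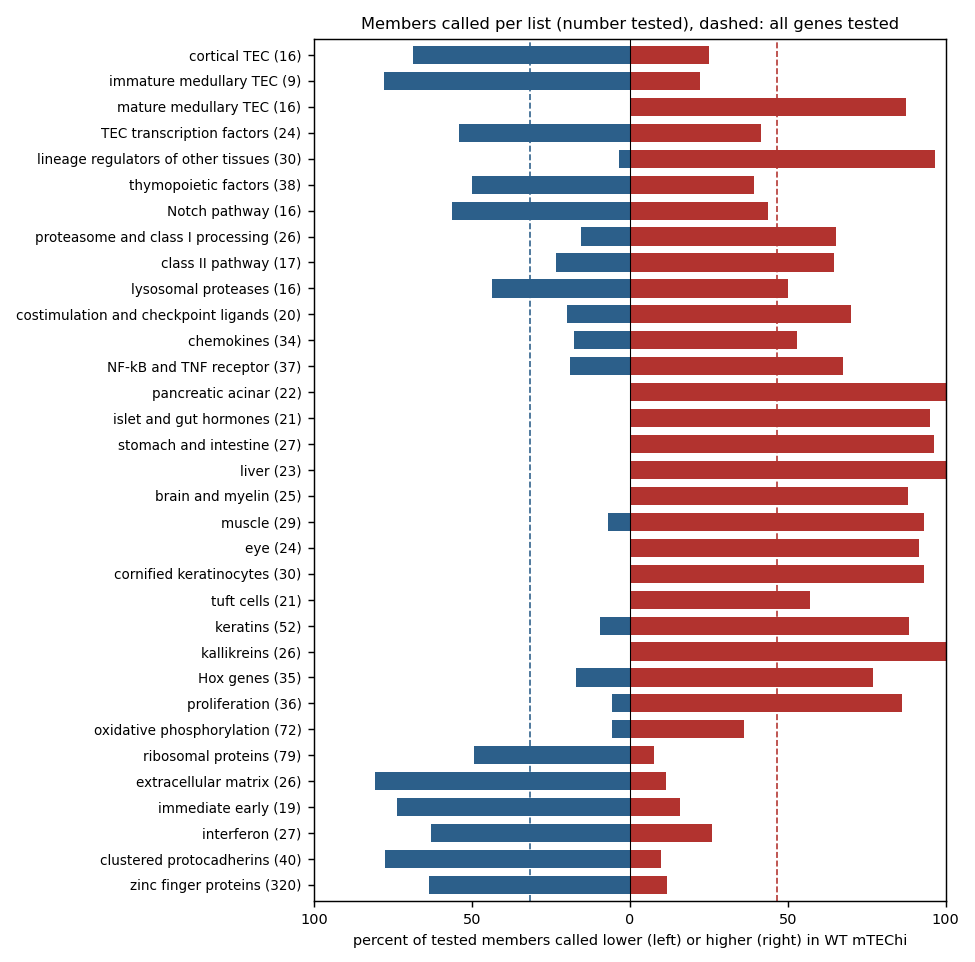
Percent of the tested members of 33 lists and families (number tested in brackets) called higher in mTEChi (red, to the right) or lower (blue, to the left); dashed lines mark the shares over all genes tested, 46.6% and 31.6%. Lists of other organs' genes and of lineage regulators reach far to the right, while matrix, immediate early, interferon, protocadherin and zinc finger genes reach to the left.

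Of 52 keratins, 46 were higher, 5 lower and 1 not called, with 15 having passed through mTEChi alone. Krt10, a keratin of differentiating epidermis, was at 90.9, 98.4 and 96.9 RPKM in mTEChi and at 5.18, 4.49 and 6.03 RPKM in cTEC. Krt16 was at 55.7, 62 and 55.8 RPKM in mTEChi and at 0.39, 0.497 and 0.702 RPKM in cTEC, and the hair keratin Krt73 was at 12, 10.9 and 9.94 RPKM in mTEChi and at 0.0033, 0 and 0.00342 RPKM in cTEC. The lower keratins were Krt5, Krt14, Krt18, Krt7 (-0.98, adjusted p = 3.9e-05) and Krt19 (-1.27, adjusted p = 0.00055), which are known from basal and simple epithelia. All 26 kallikreins were higher (4 through mTEChi alone). Of 23 claudins 17 were higher and 5 lower, with Cldn4 at 180.1, 181 and 154 RPKM in mTEChi and at 8.4, 12.4 and 10.7 RPKM in cTEC and Cldn1 lower (-1.44, adjusted p = 3.6e-07). Of 1088 olfactory receptor genes in the files 71 were tested, and 61 of those were higher and 2 lower, 50 having passed through mTEChi alone; with quantile normalization 13 were higher and 11 lower. Olfr461 had the highest mean of them in mTEChi, 4.15, 5.02 and 3.05 RPKM, and was at 1.21, 2.39 and 0.642 RPKM in cTEC.

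Of 21 tuft cell genes tested, 12 were higher in mTEChi (57.1%, beside 46.6% of all genes), none was lower and 9 were not called. Their summed level was 252 to 464 RPKM in mTEChi and 118 to 297 RPKM in cTEC, with replicate 2 the highest in both groups. Pou2f3, the regulator of tuft cell fate, was at 20.6, 25 and 22.5 RPKM in mTEChi and at 3.9, 8.81 and 4.2 RPKM in cTEC. Avil, an actin-binding protein of tuft cells, was at 41.3, 59.7 and 27.2 RPKM in mTEChi and at 13.1, 35.6 and 14.2 RPKM in cTEC; the groups overlapped, and its call was lost without cTEC replicate 1 or 3 or mTEChi replicate 1 or 2 (adjusted p of 0.09999 to 0.145, limma). Alox5ap, which serves leukotriene synthesis, was at 26.8, 35.5 and 15.5 RPKM in mTEChi and at 12.6, 39.8 and 14.6 RPKM in cTEC and was not called.

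Matrix and stress-response genes were on the cTEC side. Of 26 matrix and basement membrane genes, 21 were lower in mTEChi and 3 higher. Igfbp5, a secreted binder of insulin-like growth factors, was at 50.7, 43.7 and 43 RPKM in mTEChi and at 1104, 898 and 831 RPKM in cTEC. Lamb1, a laminin chain, was at 13, 11.1 and 10.5 RPKM in mTEChi and at 158, 139 and 133 RPKM in cTEC. Sparc, a matricellular protein, was at 31, 27.5 and 28.1 RPKM in mTEChi and at 292, 236 and 283 RPKM in cTEC. Apoe, a lipid carrier and the sixth most abundant named gene of cTEC, was at 99.7, 99.8 and 88 RPKM in mTEChi and at 2096, 1496 and 2065 RPKM in cTEC. Immediate early and heat shock genes were lower for 14 of 19 and higher for 3. Fos was at 385, 322 and 391 RPKM in mTEChi and at 2047, 1483 and 1962 RPKM in cTEC, and Jun was at 208, 199 and 226 RPKM in mTEChi and at 1176, 737 and 1047 RPKM in cTEC.

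Of 27 interferon-related genes, 7 were higher and 17 lower in mTEChi. Of the 27, 2 genes, Ifnl2 among them, had passed the filter through mTEChi alone, so their direction was fixed. Ifnl2, an interferon lambda gene, was at 4.17, 4.49 and 5.62 RPKM in mTEChi and at 0.0225, 0 and 0.0284 RPKM in cTEC, and its neighbour Ifnl3, a near-identical copy whose reads may be shared, was higher as well (4.99, adjusted p = 3.6e-07). The induced genes Ifit3, at 21.6, 17 and 13.5 RPKM in mTEChi and at 178, 152 and 189 RPKM in cTEC, Ifi44 (-2.98, adjusted p = 2.1e-07) and Ddx58, which encodes RIG-I (-2.22, adjusted p = 5.7e-07), were lower in mTEChi, as was the signal transducer Stat2 (-1.40, adjusted p = 1.1e-06).

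Cell cycle genes were higher in mTEChi for 31 of 36 and lower for 2. Cdk1 was at 11.9, 8.08 and 11.5 RPKM in mTEChi and at 1.35, 1.42 and 1.63 RPKM in cTEC. The exceptions were Rrm1 (-0.63, adjusted p = 0.0022) and Mcm4 (-0.42, adjusted p = 0.032), both of DNA replication. Genes named as partners of the Aire protein were 4 higher, 12 lower and 9 not called among 25. The shares were 16% higher and 48% lower, beside 46.6% and 31.6% of all genes. Sirt1, a deacetylase that acts on Aire, was at 126, 130.4 and 124 RPKM in mTEChi and at 12.1, 14.9 and 15.9 RPKM in cTEC. Xrcc5, the Ku80 subunit of DNA repair, was lower (-2.17, adjusted p = 1.1e-06).

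Several large families leaned to cTEC. Of 320 zinc finger genes, 204 were lower and 38 higher. Of 40 clustered protocadherins, 31 were lower and 4 higher, and Pcdhgc3, the highest of them, was at 15.2, 14.9 and 16.7 RPKM in mTEChi and at 39.995, 28 and 31.6 RPKM in cTEC; their shared constant exons make single members uncertain. Ribosomal protein genes were lower for 39 of 79 and higher for 6, with a median log2 difference of -0.28, and many have processed pseudogenes that can take their reads. Oxidative phosphorylation genes were higher for 26 of 72, a share below that of all genes, and lower for 4; they were 17 higher and 16 lower on the housekeeping centre and 15 and 15 on the median gene. Counted over all 71 lists and families, 56 had more members higher than lower and 15 the reverse. Cholesterol synthesis (11 higher, 10 lower) and glycolysis (4 and 3) turned to the other side in each of the 3 other scalings, and collagens (25 and 15), integrins (15 and 10) and FGF ligands (13 and 4) did so under quantile normalization. With that scaling the counts higher and lower also moved to 10 and 6 for claudins, 8 and 6 for class II genes, 17 and 2 for eye, 16 and 2 for brain, 11 and 3 for germ cell, 10 and 5 for dendritic cell and macrophage and 4 and 2 for endothelial genes, and to 0 and 38 for protocadherins. Ribosomal protein genes were 2 higher and 62 lower on either centring.

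The KO libraries, which share none with the WT comparison, gave the same contrast in mice that lack functional Aire. There, 4551 genes were called higher (23.9%) and 7292 lower (38.3%). Centring on the median gene turned this balance to 7836 higher and 4461 lower, and the overlaps given next hold for the deposited scale only. Genes higher in both genotypes numbered 4119, which is 46.4% of those higher in WT and 90.5% of those higher in KO. In the opposite direction, 629 of the WT higher genes (7.08%) were called lower in KO. Another 4138 of the WT higher genes were not called in KO, which does not show that the KO populations were alike. Cd74 was not called in KO (adjusted p = 0.53, limma), with a log2 difference of 1.57 there and 1.06 in WT. Its KO levels were 11493 ± 328 RPKM in mTEChi and 3883 ± 16.2 RPKM in cTEC (means ± SD). Of genes lower in WT, 5226 were lower in KO too (86.7% of the WT set, 71.7% of the KO set) and 54 were called higher (0.896% of the WT set). The median of the WT higher genes was 1.27 RPKM in KO mTEChi and 0.608 RPKM in KO cTEC. The difference between the contrasts, tested as an interaction over 12 libraries, was called above 0 for 7966 genes (41.8%) and below 0 for 830 (4.36%). This split depends on the scale, since quantile normalization gave 3492 above and 4762 below 0, and centring on the median gene 4467 and 5934. The filter bears on the KO shares and on the interaction split too. Genes were kept by their WT levels, 2705 through WT mTEChi alone and 28 through WT cTEC alone. Genes present only in KO libraries did not enter.

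For 2 cortical genes the contrast was not called different between the genotypes. Prss16 was at 18.2 ± 2.88 RPKM in KO mTEChi and 232 ± 91.7 in KO cTEC (means ± SD, n = 3), a KO log2 difference of -3.60 (adjusted p = 0.00038) beside -3.70 in WT; the interaction was -0.10 ± 0.37 (SE), adjusted p = 0.85. Ccrl1 differed by -6.05 in KO and by -6.05 in WT (interaction 0.01 ± 0.39 (SE), adjusted p = 0.99). Among medullary genes, Cd80 was at 101 ± 1.98 RPKM in KO mTEChi and 12.1 ± 8.1 in KO cTEC, with an interaction of 1.26 ± 0.65 (SE), adjusted p = 0.13. Aire transcript was present in the KO libraries at 1073 ± 64.5 RPKM in KO mTEChi and 52.8 ± 37.3 in KO cTEC, so its level does not check the genotype, and the KO cTEC mean lay above every WT cTEC library; its interaction was 2.82 ± 0.64 (SE), adjusted p = 0.0035. Fezf2 was at 215 ± 4.61 RPKM in KO mTEChi and 21.5 ± 9.43 in KO cTEC (interaction 1.86 ± 0.35 (SE), adjusted p = 0.0012).

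Other genes differed between the genotypes in this contrast. Sst was at 0.00393 ± 0.00681 RPKM in KO mTEChi and 0.00851 ± 0.0147 in KO cTEC, near 0 in both. Its interaction was 8.23 ± 0.25 (SE), adjusted p = 1.6e-08. Since Sst had passed the filter through WT mTEChi alone, this value restates a WT difference whose direction the filter fixed. Csn2 stayed on the mTEChi side, at 1287 ± 63.6 RPKM in KO mTEChi and 85.4 ± 54 in KO cTEC, with an interaction of 2.75 ± 0.57 (SE), adjusted p = 0.0022. Xcl1 was at 0.258 ± 0.0734 RPKM in KO mTEChi and 0.284 ± 0.301 in KO cTEC and had no call in KO (adjusted p = 0.77; interaction 5.55 ± 0.78 (SE), adjusted p = 0.00014). Tslp (interaction 5.04 ± 0.57 (SE), adjusted p = 2.8e-05) and Pou2f3 (interaction 2.64 ± 0.46 (SE), adjusted p = 0.00064) differed between the genotypes as well. Avil was lower in KO mTEChi than in KO cTEC, at 27.2 ± 6.33 RPKM in KO mTEChi and 144 ± 80.4 in KO cTEC (interaction 3.40 ± 0.62 (SE), adjusted p = 0.00089). Of 21 tuft cell genes, 15 were lower in KO, beside 38.3% of all genes, and 12 were higher in WT, beside 46.6%. The summed tuft cell level was 201 to 280 RPKM in KO mTEChi and 739 to 1655 RPKM in KO cTEC. In KO cTEC the dendritic cell and macrophage genes summed to 128 to 164 RPKM and the B and plasma cell genes to 16.03 to 51.1 RPKM, above the WT cTEC ranges, and the part of other cells in these differences was not tested. On the cTEC side the gap was wider in KO for Sparc, at 1.99 ± 0.307 RPKM in KO mTEChi and 207 ± 51.9 in KO cTEC (interaction 3.39 ± 0.25 (SE), adjusted p = 1.1e-06), for Krt5, at 78.2 ± 9.33 RPKM in KO mTEChi and 989 ± 100.5 in KO cTEC (interaction 2.41 ± 0.21 (SE), adjusted p = 4e-06), for Ifit3, at 1.82 ± 0.24 RPKM in KO mTEChi and 109.6 ± 26.6 in KO cTEC (interaction 2.49 ± 0.28 (SE), adjusted p = 2.7e-05), and for Enpep, at 0.827 ± 0.13 RPKM in KO mTEChi and 22.2 ± 4.44 in KO cTEC (interaction 2.67 ± 0.30 (SE), adjusted p = 2.5e-05). Depth was 6.25 to 11.6 Gb in the KO mTEChi and 9.12 to 11.3 Gb in the KO cTEC libraries, and its part in these differences was not tested.

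**Figure D5:**
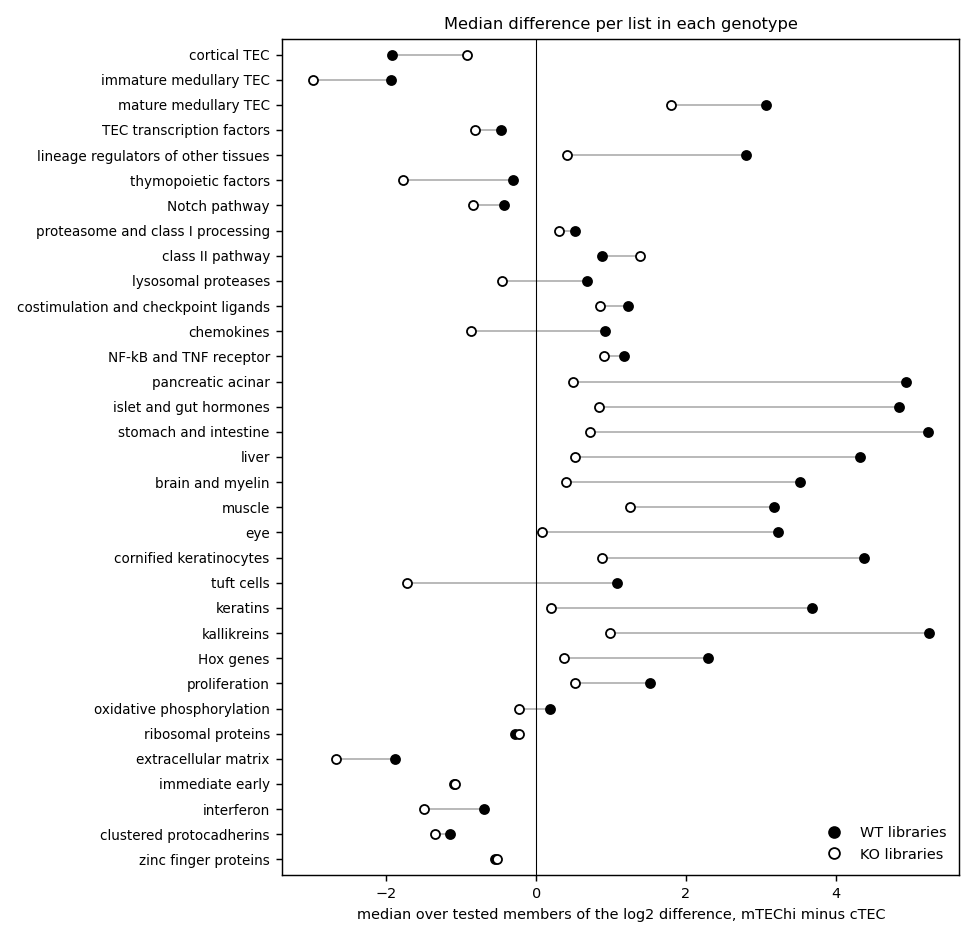
Median over the tested members of each of 33 lists and families of the log2 difference mTEChi minus cTEC, in WT (filled) and KO libraries (open). The pancreatic, islet and gut, stomach and intestine, liver, brain, muscle and eye lists lie right of 0 in both genotypes. Each of these is nearer to 0 in KO. The cortical list lies left of 0 in both. The tuft cell, chemokine, lysosomal protease and oxidative phosphorylation lists lie on opposite sides. All this holds on the deposited scale. The WT median of the lysosomal list is -0.12 with quantile normalization. That of the oxidative phosphorylation list is -0.02 centred on the housekeeping list and -0.05 centred on the median gene.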

How the data were processed

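RNA of sorted thymic epithelial cells was sequenced on the Illumina HiSeq2000, per the labels. The authors deposited 1 RPKM value per gene and library, and beside it the aligned bases per gene, a coverage signal used here only for depth. The software CASAVA 1.8.2 and the build mm10 come from the submitters' processing notes, and the counting rule is not given in the sources used here.

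Genes at 0.1 RPKM or more in at least 3 of the 6 WT libraries were tested on log2(RPKM + 0.1) with limma 3.58.1 in R 4.3.3 (empirical Bayes with a trend), with Benjamini-Hochberg adjustment over all 19054 genes and a threshold of 0.05; every adjusted p printed is from this tool. The pseudocount understates the change of low genes. The KO contrast used 6 KO libraries, and the interaction all 12, on the same genes. Values per library were compared by two-sided exact permutation tests, which with 3 against 3 cannot go below 0.1. The fit was also run on simulated data in which few genes were changed, whereas 78.3% were called in WT. That run therefore does not bear on the choice of scale. Genes are grouped by hand-written lists and by symbol families; named genes are the 15 largest rises and the 15 largest falls (called, no overlap, 1 RPKM or more in the higher group, no predicted gene models), the 10 most abundant of each group, any member of the thymic epithelial, thymopoietic, presentation, costimulation, chemokine, NF-kB and Notch lists, and from every other list up to 4 called members of smallest adjusted p in each direction, the member of highest mean in each group and the most abundant member not called. The members and lists were chosen with earlier results of these data known. Alternatives were other scalings, filters and pseudocounts, a replicate block and leaving out each library. RPKM carry no counts, so no counting interval is given.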

Additional observations from a re-analysis of the deposited data

Results flagged for a closer look

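Groups of 3 libraries are too small for a test of single outlying libraries. The genes tested were kept by their WT levels, which bears on the following split. The difference between the WT and KO contrasts, tested by interaction in limma, was called above 0 for 7966 genes and below 0 for 830. Of the genes named above, it was called for Aire (2.82 on the log2 scale), Fezf2 (1.86), Sst (8.23), Csn2 (2.75), Xcl1 (5.55), Tslp (5.04), Avil (3.40), Pou2f3 (2.64), Sparc (3.39), Krt5 (2.41), Ifit3 (2.49) and Enpep (2.67). For Aire and Csn2 the mean was above the WT mean in both KO populations, and for Sst it was near 0 in both. Sst had passed the filter through WT mTEChi alone, so its interaction restates a WT difference whose direction the filter fixed.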

How the results depend on the processing

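The count of WT genes called higher stayed within 1.5 times its value in each alternative run, and so did the count called lower. With the replicate block the WT calls were 8842 higher and 5849 lower and the interaction calls 7667 and 778. Same-numbered libraries had correlations of their deviations of 0.050, 0.065 and 0.073 in WT and 0.038, 0.046 and 0.042 in KO. These are low, yet every library correlated best with its own number. Whether the numbers mark pairs cannot be settled from these values, and the main fit did not take them as pairs. Leaving out 1 library gave 8340 to 8857 higher and 5554 to 5916 lower in WT, 3710 to 4994 and 6120 to 7734 in KO, and 7031 to 8865 above and 645 to 1023 below 0 for the interaction. Centring on the median gene gave 7836 higher and 4461 lower in KO, and 4467 above and 5934 below 0 for the interaction; quantile normalization gave 3492 and 4762, and centring on the housekeeping list 1284 below 0. With the median gene as centre, the KO difference of Sst turned from -0.06 to 0.35. At 0.5 RPKM the mean number of genes detected differed by 3365, and the 20 most abundant genes differed in their share by 2.32 percentage points (exact permutation p = 0.1 for both). TATAA in place of TATAAA was present in 17.4% of higher, 7.84% of lower and 9.92% of uncalled genes. Among higher genes the share was 24.0% for those that passed the filter through mTEChi alone and 14.5% for the others. Calls of Cd48, Mcm4 and Cd74 were lost without 1 of some libraries, and those of Ccl17, Ccl22, Ccl25, Tap2 and Alox5ap were gained. The log2 difference of Cd74 was 1.05 without mTEChi replicate 2, beside 1.06 in the main fit. The cause was not tested.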
